A study of Rattus norvegicus with 54 samples.

Results

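miR-375 is a microRNA of endocrine and epithelial cells, and it was described here by both mature arms of its hairpin, miR-375-3p and miR-375-5p, in every library of the series. The members were the rows of the miRNA count table whose name begins with rno-miR-375, which gave 2 of the 832 miRNAs counted, rno-miR-375-3p and rno-miR-375-5p. miR-375 was selected on its plasma counts in APAP-treated against methylcellulose-treated rats, where it was higher, so that contrast is given as a description without a test. Small RNA was sequenced from 54 samples of male Sprague-Dawley rats, 9 weeks old by the labels, which fell into 18 groups of 3. Kidney, plasma and urine came from rats given a single intravenous dose of 5 mg/kg cisplatin or 0.9% sterile saline and sampled 72 h later. Liver, plasma and urine came from rats given a single oral dose of 1250 mg/kg acetaminophen (APAP) or 0.5% methylcellulose, or 1500 mg/kg carbon tetrachloride (CCl4) or corn oil, and sampled 24 h later. The labels of the cisplatin urine samples give 1500 mg/kg where the study's methods give 5 mg/kg. Cisplatin damages the proximal tubule of the kidney, and APAP and CCl4 damage the hepatocytes around the central veins of the liver. According to the methods each group's 3 samples came from 3 animals, and the labels do not say which kidney, liver, plasma and urine samples came from the same rat.

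A miRNA gene is transcribed as a hairpin, from which Dicer cuts a short duplex. One arm of the duplex is usually kept in the Argonaute protein, where its seed pairs with target messenger RNAs, and the other arm is usually degraded. miR-375 is among the most abundant miRNAs of the endocrine cells of the pancreatic islet, where in mouse it restrains insulin secretion, and it is also found in the pituitary and in epithelia of the gut and airway. Circulating miRNAs are carried by vesicles, lipoproteins and Argonaute complexes, and the level of one in plasma can change when cells that hold it are damaged.

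The RefSeq sequences of both arms and of the hairpin are shown because the 3p arm carried nearly every read. Capitals mark the seed (bases 2 to 8) in the mature arms and the 3p arm in the hairpin. miR-192-5p and miR-122-5p, against which miR-375-3p is set in the plasma results, are shown with their own seeds.
miR-375-3p: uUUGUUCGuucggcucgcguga
miR-375-5p: gCGACGAGccccucgcacaaacc
Mir375 hairpin: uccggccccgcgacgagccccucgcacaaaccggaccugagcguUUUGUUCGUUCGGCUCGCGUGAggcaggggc
miR-192-5p: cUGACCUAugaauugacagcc
miR-122-5p: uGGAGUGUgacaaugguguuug

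The hairpin is 75 bases long and lies on the minus strand of chromosome 9 at chr9:83906582-83906656 in the RefSeq GRCr8 assembly, with the 3p arm at positions 45 to 66 and the 5p arm at positions 10 to 32. It overlaps the gene models Cryba2, a lens crystallin gene, and LOC134480387, and the nearest coding genes beyond are Fev, a transcription factor gene of serotonin neurons, and Cfap65, a gene of the sperm flagellum. None of the other mature miRNAs in the RefSeq table of 693 had the seed of miR-375-3p, or its bases 2 to 7 alone. The closest of them differed from miR-375-3p at 5 positions in an ungapped match of at least 18 bases. The read alignment allowed fewer mismatches than that.

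miR-375-3p had 8502 reads over the 54 libraries and was seen in 51 of them. miR-375-5p had 1 read, in the corn oil liver library of replicate 2, where 125 reads came from the 3p arm. The 3p arm thus made up 99.988% of the reads of the hairpin, and the 5p arm could be tested in none of the comparisons. A count of 0 in a library allows up to 3 reads, which for the 5p arm in the tissue libraries is a limit of 0.835 to 11.0 counts per 1000000 counted miRNA reads (CPM). All that follows concerns the 3p arm.

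Levels are given in this unit. Library totals ran from 372997 to 3591541 reads in kidney, from 273410 to 2213358 in liver, from 21627 to 1290244 in plasma and from 377 to 58151 in urine. Exact Clopper-Pearson intervals (95%) are given for single libraries and cover counting error only, since the reads carry no molecular identifiers. The labelled tissues carried their markers: miR-122-5p, the dominant miRNA of hepatocytes, had a median of 20674 CPM in liver and 1.70 CPM in kidney, while miR-196a-5p, a HOX cluster miRNA of posterior organs, had 176 CPM in kidney and 0 in liver. Plasma held the blood cell miRNAs miR-451-5p (red cells) and miR-223-3p (myeloid cells) at medians of 1431 and 2764 CPM.

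miR-375-3p was of middling abundance and, over vehicle and treated libraries together, at a like median level in kidney, liver and plasma. Its median was 276 CPM over the 6 kidney libraries, 250 CPM over the 12 liver libraries and 223 CPM over the 18 plasma libraries. In the vehicle libraries alone its medians were 286 CPM in kidney, 277 CPM in liver and 185 CPM in plasma. In order of reads it stood between places 72 and 101 in kidney, 90 and 121 in liver, and 51 and 181 in plasma. The libraries of plasma were far more spread than those of the tissues, with a coefficient of variation of 74.6% against 22.6% in liver and 31.7% in kidney. In urine it made up a larger share of the reads, with a median of 2292 CPM, but that share rested on 0 to 14 reads in each library outside the cisplatin group.

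**Figure D1:**
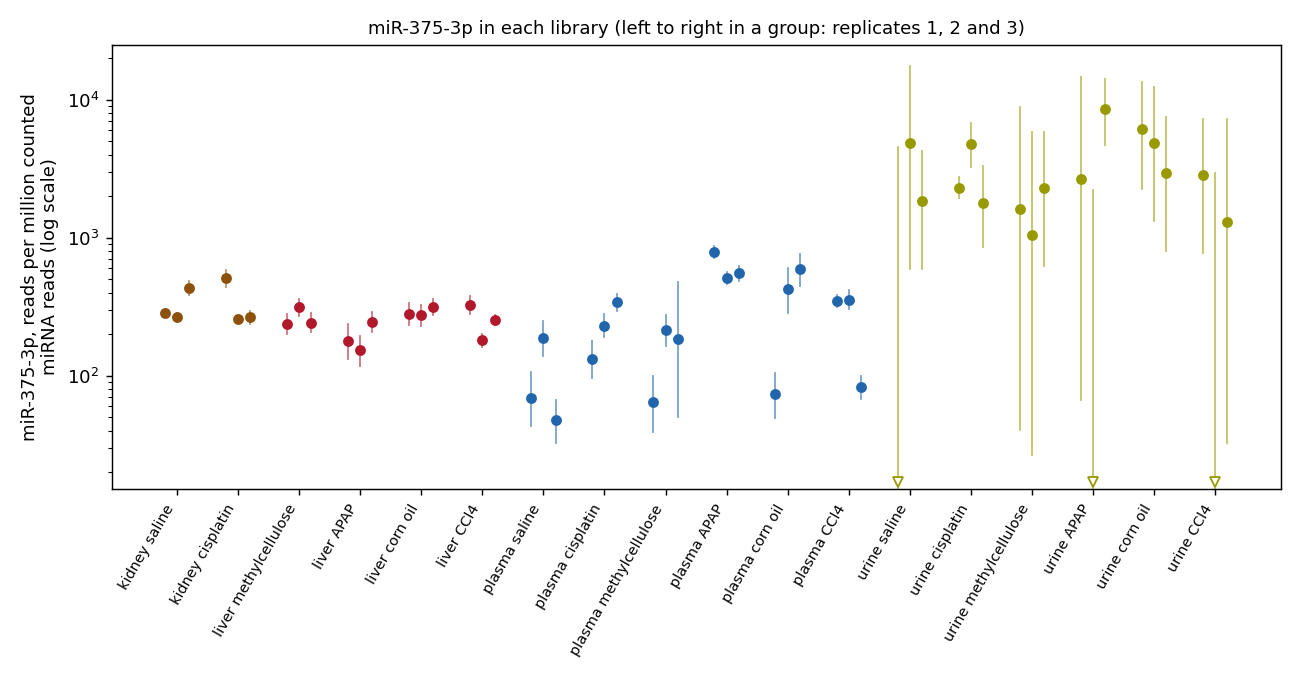
Level of miR-375-3p in each library, in CPM on a log axis, by sample type and treatment. Points are libraries, bars are exact 95% counting intervals and open triangles at the lower edge are urine libraries with 0 reads. The 3 APAP plasma libraries, at 510 to 790 CPM, sit above the 3 methylcellulose plasma libraries, at 64.0 to 215 CPM, while the tissue libraries stay between 153 and 507 CPM.

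Ordered by group mean, the level was highest in plasma of APAP rats (617 ± 152 CPM, SD, n = 3). Next came plasma after corn oil (363 ± 264), kidney after cisplatin (344 ± 141), kidney after saline (328 ± 91.0), liver after corn oil (290 ± 22.7), liver after methylcellulose (264 ± 42.5), plasma after CCl4 (262 ± 156) and liver after CCl4 (254 ± 73.0), each with n = 3. At the low end were plasma after cisplatin (235 ± 104), liver after APAP (192 ± 47.5), plasma after methylcellulose (155 ± 79.9) and plasma after saline (102 ± 75.6). Every pair of neighbours in this order overlapped in the values of their libraries, so no step from one group to the next exceeded the spread. Tissue and fluid RNA were isolated by different procedures, and the levels across sample types are shares of each library's miRNA reads, not amounts.

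The plasma contrast of APAP and methylcellulose held the largest difference in miR-375-3p. The methylcellulose libraries had 20, 60 and 4 reads, which were 64.0 CPM (interval 39.1 to 98.8), 215 CPM (164 to 276) and 185 CPM (50.4 to 473). In the APAP libraries there were 387, 389 and 243 reads, or 790 CPM (713 to 873), 510 CPM (460 to 563) and 550 CPM (483 to 624). The groups did not overlap, and the ratio of mean CPM was 3.99. Among the 227 miRNAs tested in this contrast 48.9% had groups that did not overlap and 26.9% were called by edgeR, and nothing is read from either share, since this contrast chose the miRNA.

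On the scale of edgeR with TMM factors (trimmed mean of M values), the log2 fold change of miR-375-3p in APAP plasma was 3.58 with a standard error of 0.74. It was the entry at place 22 of 227 by fold change, and the median of all miRNAs tested was 0.21. With library totals in place of TMM factors the fold change was 2.06 and the median of all tested was -0.92. The TMM factor of APAP replicate 1 was 0.350, against 0.894 to 1.63 in the other 5 libraries, and 37.4% of the reads of that library came from miR-22-3p, an abundant liver miRNA. Methylcellulose replicate 3 held only 21627 reads in all. Without both of these libraries the log2 fold change was 2.53, and leaving out any single library gave 2.59 to 3.90.

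Liver from the APAP rats did not share the higher level of the plasma. The methylcellulose livers stood at 237, 313 and 243 CPM and the APAP livers at 179, 153 and 245 CPM. The lowest APAP livers lay below all 3 vehicle livers and the highest lay among them, so the groups overlapped. The edgeR log2 fold change was -0.45 (standard error 0.20, 95% interval -0.84 to -0.06), with an unadjusted p of 0.0261 and a Benjamini-Hochberg adjusted p of 0.382 over 249 miRNAs, of which 3.21% were called. By fold change miR-375-3p stood at place 235 of 249. Mean CPM in APAP plasma was 3.21 times that in APAP liver, while in the methylcellulose rats the plasma mean was 0.585 times the liver mean. The liver and plasma contrasts were not tested against each other.

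**Figure D2:**
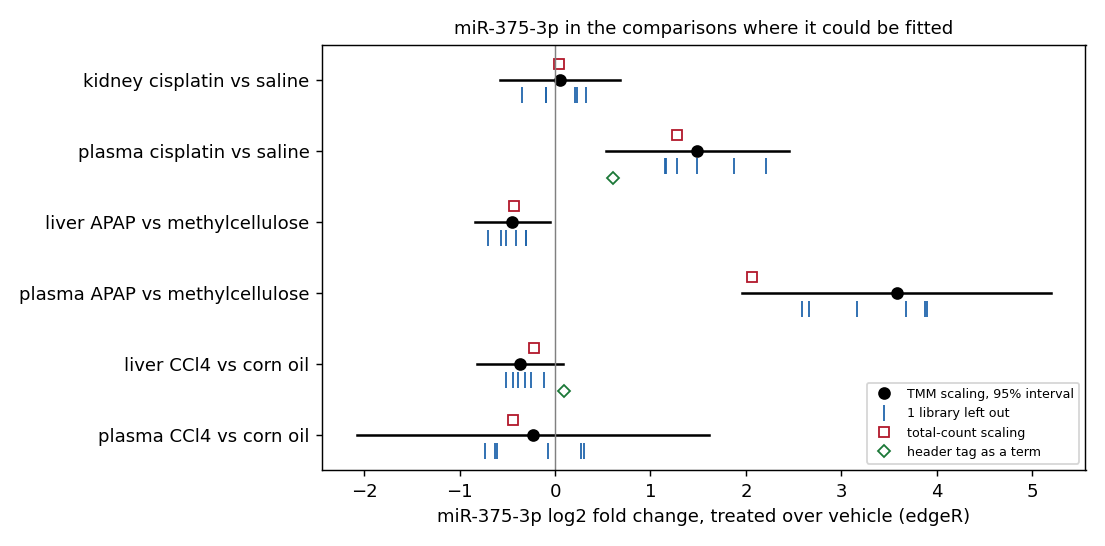
Log2 fold change of miR-375-3p, treated over vehicle, in the 6 comparisons where edgeR could be fitted. Black points with lines are TMM-scaled values with 95% intervals, blue ticks leave out 1 library each, red squares use library totals and green diamonds add the header tag as a term. Plasma after APAP lies farthest from 0 at 3.58, and plasma after cisplatin moves from 1.49 to 0.61 with the tag in the model.

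CCl4, the other liver toxicant, was followed by no such difference in plasma. The corn oil plasma libraries had 73.8, 424 and 592 CPM and the CCl4 libraries 349, 356 and 82.2 CPM. Both groups held 1 library near 80 CPM and others several times higher, and they overlapped over most of their range. edgeR gave a log2 fold change of -0.23 with a standard error of 0.83 and an adjusted p of 0.962 over 231 miRNAs, of which 0.433% were called. Its 95% interval ran from -2.08 to 1.61, so neither a 3.05-fold higher level nor one 0.237 times that of corn oil lay outside it. Corn oil replicates 2 and 3, the high ones, were also the shallow ones, with 70736 and 96270 reads against 406613 in replicate 1. With both left out the log2 fold change was 2.02 (adjusted p = 0.617 by edgeR), a fit in which the single remaining vehicle library was assumed to vary like the CCl4 group. The sign also turned without corn oil replicate 3 alone (0.30) and without CCl4 replicate 3 alone (0.28). Whether the responses to APAP and CCl4 differ was not tested, because the APAP contrast had chosen the miRNA.

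In liver after CCl4 the level overlapped with that after corn oil. The corn oil livers had 280, 274 and 316 CPM and the CCl4 livers 326, 180 and 254 CPM. CCl4 replicate 1 was above all corn oil livers and the other CCl4 livers were below them. The log2 fold change was -0.36 (standard error 0.21, 95% interval -0.82 to 0.09, adjusted p = 0.322 by edgeR over 254 miRNAs, 2.76% called). Column headers carry a tag beginning with L, which the table does not define. All corn oil livers and CCl4 replicate 1 carried L5, and CCl4 replicates 2 and 3 carried L6 and held over 3 times the reads of any other liver of this comparison. Within L5 the log2 fold change was 0.09, and with the tag as a term it was also 0.09. Tag and treatment could be told apart only through that 1 library.

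Cisplatin was followed by a higher mean level in plasma that did not pass the test. The saline plasma libraries had 69.4, 188 and 47.4 CPM, from 21, 51 and 33 reads. The cisplatin libraries had 133, 231 and 340 CPM, from 45, 110 and 213 reads. Cisplatin replicate 1 lay below saline replicate 2, and the other cisplatin libraries lay above all saline libraries. The log2 fold change was 1.49 (standard error 0.46, 95% interval 0.53 to 2.46), the entry at place 5 of the 222 miRNAs tested, with an unadjusted p of 0.00457 and an adjusted p of 0.102 by edgeR. miR-375-3p was thus not among the 4.05% of miRNAs called in this comparison.

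The call on cisplatin plasma turned on the tool and on single libraries. DESeq2 on the same miRNAs gave a log2 fold change of 1.52 with an adjusted p of 0.0326. Without saline replicate 2 the edgeR value was 2.21 (adjusted p = 0.0222), and without cisplatin replicate 1 it was 1.88 (adjusted p = 0.00378). Over all 6 libraries left out in turn, the value ran from 1.15 to 2.21. The header tag was L1 in the saline libraries and in cisplatin replicate 1, and L2 in the higher cisplatin libraries, replicates 2 and 3. With the tag as a term the log2 fold change was 0.61 (adjusted p = 0.849 by edgeR), and within L1, with 1 cisplatin library, it was 0.55 (adjusted p = 0.941).

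The kidneys of the cisplatin rats overlapped with the saline kidneys in miR-375-3p. Saline kidneys had 286, 266 and 433 CPM and cisplatin kidneys 507, 259 and 265 CPM. In each group 1 library stood above the others, and those were the shallowest kidney libraries, with 626171 and 372997 reads. The log2 fold change was 0.05 (standard error 0.29, 95% interval -0.58 to 0.68, adjusted p = 0.986 by edgeR over 344 miRNAs, 1.74% called). Its place by fold change was 179 of 344. With the replicate number as a block, it was 0.04 (adjusted p = 0.965 by edgeR), and the block raised the number of miRNAs called from 6 to 10. As a fold, the interval reached from 0.669 to 1.61 times the saline level.

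Urine gave few reads of miR-375-3p. In the vehicle groups the reads were 1, 1 and 4 after methylcellulose, 6, 4 and 4 after corn oil, and 0, 2 and 5 after saline. After APAP there were 1, 0 and 14 reads, and after CCl4 4, 0 and 1. After cisplatin the counts were 134, 31 and 10, but those libraries also held far more miRNA reads, 58151, 6499 and 5580 against 410 to 2725 after saline. As a share of all reads, pooled over the 3 libraries, that was 2492 CPM (interval 2137 to 2889) after cisplatin and 1773 CPM (713 to 3650) after saline. These intervals overlapped, but they leave out the spread between rats and cannot compare the groups. Cisplatin replicate 1 held 58151 of the 70230 pooled reads and saline replicate 3 held 2725 of 3948. The header tag was L7 in the saline libraries and in cisplatin replicate 1, and L8 in cisplatin replicates 2 and 3. Tag and treatment could thus be told apart only through cisplatin replicate 1. Single libraries ran from 1792 to 4770 CPM after cisplatin and from 0 to 4878 CPM after saline. miR-375-3p did not reach the count filter in any urine comparison of all 6 libraries. With a mean count of at least 10 as the filter, its log2 fold change after cisplatin was 0.76 (standard error 0.80, adjusted p = 0.578 by edgeR), and it was 0.73 to 1.36 in the 5 fits with 1 library left out in which it passed the filter, the lowest adjusted p being 0.383. In the fit without a filter it was 1.36 (standard error 0.69, adjusted p = 0.361 by edgeR), beside a median of 1.25 over all 302 miRNAs fitted. Methylcellulose replicates 1 and 2, corn oil replicates 1 and 3, and CCl4 replicates 2 and 3 of urine gave no detectable difference in chi-square tests of their counts (p = 0.282, 0.169 and 0.0864, with 1.15, 1.25 and 1.47 times the variance of counting alone), while the other pairs of their groups differed. At this depth the tests do not show that a pair is a single sample. Each was counted as 1, and no mean or SD is given for urine.

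The miRNAs whose levels ran most like that of miR-375-3p depended on the measure of likeness. Over the 36 kidney, liver and plasma libraries, on log2(CPM + 1), the highest Pearson correlations among 270 miRNAs with a mean of at least 10 CPM were those of miR-192-5p (0.58), miR-378a-3p (0.56), miR-183-5p (0.56), miR-429 (0.56) and miR-200a-3p (0.54). miR-192-5p is a miRNA of liver, kidney and intestine, miR-378a-3p is encoded within a metabolic coactivator gene, and miR-183-5p is known from sensory cells. miR-429 and miR-200a-3p belong to the miR-200 family, which maintains the epithelial state by restraining the Zeb transcription factors. In the 18 plasma libraries alone they were miR-192-5p (0.74), miR-378a-3p (0.73), miR-30a-5p of kidney tubules (0.72), miR-378b (0.66) and miR-429 (0.64), among 250 miRNAs. By rank correlation miR-429 came first over the 36 libraries (0.66) and miR-192-5p fell to place 5 (0.45), and with a pseudocount of 10 CPM miR-200a-3p came first (0.58). In plasma miR-192-5p stayed first by rank (0.83), and miR-429 came first with a pseudocount of 10 CPM (0.76). The median Pearson correlation was -0.17 over the 36 libraries and -0.30 over plasma. These points share sample types, depth and, in plasma, the APAP contrast that chose miR-375, and the values are descriptive.

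Relative to miR-192-5p, miR-375-3p was scarcer in plasma after both liver toxicants and more plentiful after cisplatin. Per 100 reads of miR-192-5p in the same library, the methylcellulose plasma held 2.04, 2.90 and 2.94 reads of miR-375-3p and the APAP plasma 0.279, 0.294 and 0.360. After corn oil the ratio was 2.15, 3.46 and 3.37, and after CCl4 it was 0.420, 0.971 and 0.306. After saline it was 1.20, 2.00 and 1.29, and after cisplatin 3.82, 3.84 and 4.85. Cisplatin replicate 1 (3.82) carried the header tag of the saline libraries. It also held less miR-192-5p (3478 CPM) than any other library of this contrast. In CPM of miR-375-3p it lay below saline replicate 2. Whether the ratio depends on the tag was not tested. The groups did not overlap in this ratio after APAP, CCl4 or cisplatin. How many other miRNAs would separate on a ratio to miR-192-5p was not counted, so whether the separation is specific to miR-375-3p is not known. The ratio was chosen after its values were seen, and 3 against 3 libraries cannot give an exact permutation p below 0.1, so it was not tested. A ratio within a library does not depend on the scaling factor. It shows unequal change of the pair, and miR-192-5p itself rose in APAP plasma from 3129, 7414 and 6288 CPM to 282980, 173469 and 152912 CPM. In CCl4 plasma it rose from 3433, 12243 and 17565 CPM to 83115, 36684 and 26876 CPM. The lower ratios after both liver toxicants thus go with a higher denominator.

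Set beside tissue, the ratios to miR-192-5p in APAP and CCl4 plasma lay nearer to those of the organs than their vehicles did. Those of cisplatin plasma lay farther away. Liver held 0.0915 to 0.228 reads of miR-375-3p per 100 of miR-192-5p (median 0.160, 12 libraries) and kidney 0.299 to 0.664 (median 0.355, 6 libraries). Vehicle plasma, at 1.20 to 3.46, was above every tissue library. The ratio to miR-122-5p was also nearer to liver after both liver toxicants than after their vehicles, but it stayed far above liver. Liver held 0.679 to 1.87 reads of miR-375-3p per 100 of miR-122-5p, APAP plasma 50.9, 25.4 and 29.9, and CCl4 plasma 20.6, 45.9 and 31.6. These APAP and CCl4 values were more than 10 times those of any liver library. The vehicle values were 500 in methylcellulose replicate 2 and 429, 3000 and 2850 after corn oil. They rested on few reads, since each vehicle plasma library held 0 to 16 reads of miR-122-5p. Methylcellulose replicates 1 and 3 held 0 and gave no value.

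**Figure D3:**
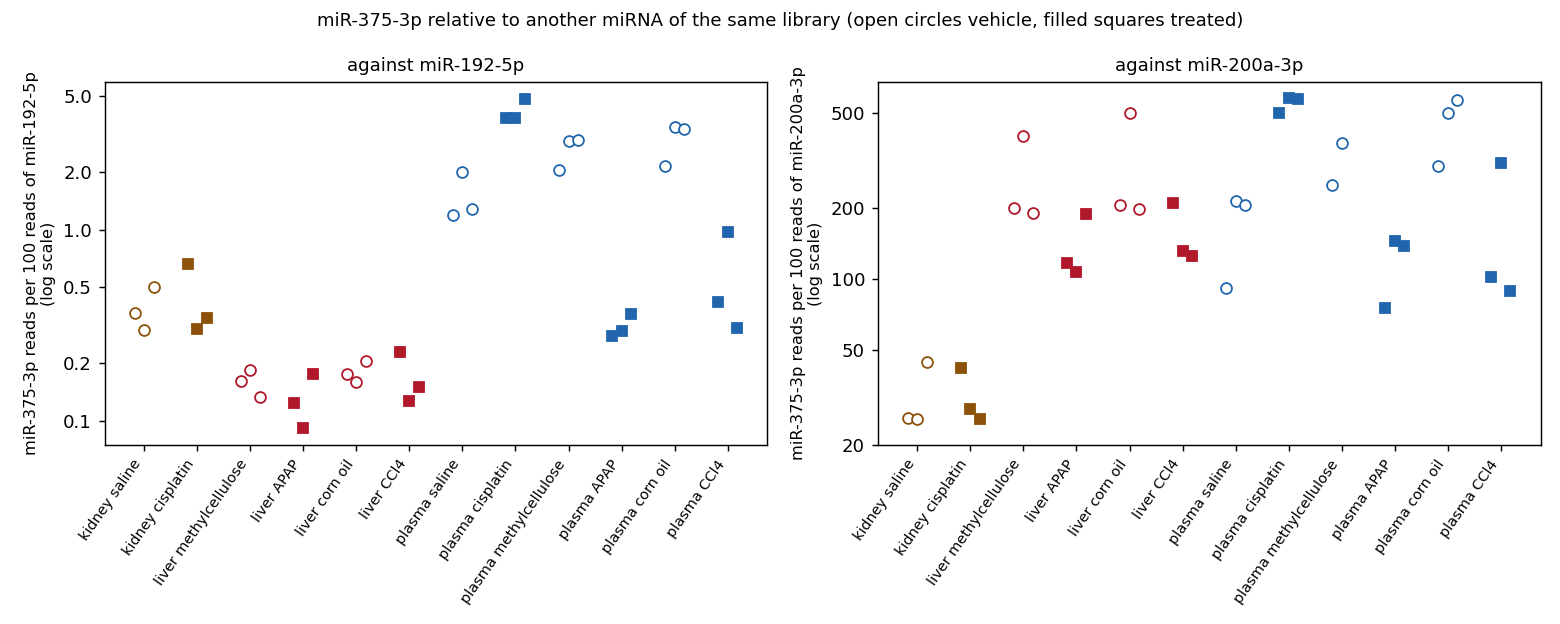
Reads of miR-375-3p per 100 reads of miR-192-5p (left) and of miR-200a-3p (right) in the same library, on log axes; open circles are vehicle and filled squares treated libraries. On the left, APAP and CCl4 plasma (0.279 to 0.971) lie below their vehicles (2.04 to 3.46) and cisplatin plasma (3.82 to 4.85) lies above saline plasma; methylcellulose plasma replicate 3 has no point on the right because it held 0 reads of miR-200a-3p.

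Against miR-200a-3p, an epithelial miRNA, the groups were again apart after cisplatin and APAP but overlapped after CCl4. The APAP contrast had chosen miR-375-3p, and how many other miRNAs would separate on this ratio was not counted. Per 100 reads of miR-200a-3p there were 91.3, 213 and 206 reads of miR-375-3p after saline and 500, 579 and 576 after cisplatin. Those ratios rested on 9 to 37 reads of miR-200a-3p in each library. Methylcellulose plasma replicates 1 and 2 held 250 and 375, replicate 3 had no reads of miR-200a-3p, and APAP plasma held 75.6, 145 and 137. The separation after APAP thus rested on methylcellulose replicates 1 and 2, with 8 and 16 reads of miR-200a-3p. After corn oil the ratio was 300, 500 and 570, and after CCl4 it was 102, 310 and 89.1. In tissue the ratio separated the organs, at 25.7 to 44.7 in kidney and 107 to 500 in liver. Methylcellulose replicates 1 and 2 and corn oil replicates 1 and 2 of plasma lay within the liver range, as did APAP replicates 2 and 3 and CCl4 replicate 2. APAP replicate 1 and CCl4 replicates 1 and 3 lay below it, and corn oil replicate 3 lay above it. By this ratio plasma after the liver toxicants was thus not uniformly nearer to liver than plasma after their vehicles.

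Marker lists of cell types placed the plasma values of miR-375-3p among those of other miRNAs. In APAP plasma 7 of 8 tested hepatocyte miRNAs were called higher, with a list median of 6.17, and 3 of 3 tested members of the miR-200 family, with a median of 5.62 and miR-429 (5.62) and miR-200a-3p (5.72) in front. Some of these were near 0 after methylcellulose, with TMM-scaled means of 0 CPM for miR-802-3p, 5.78 for miR-429 and 8.77 for miR-122-5p. Others were not, such as miR-101b-3p at 1217 CPM. A miRNA that scarce in the vehicle passes the count filter only if it is high after APAP. The shares called and the medians therefore describe tested members, which were 3 of 5 in the miR-200 family. For APAP plasma, 21.6% of all 227 miRNAs were called higher. miR-375-3p, at 3.58, had a smaller fold change than every called hepatocyte marker, of which the lowest was miR-101b-3p (3.85, standard error 0.64) and the most significant were miR-122-3p (6.80, standard error 0.86) and miR-122-5p (7.85, standard error 1.01), both with an adjusted p of 0.000454 by edgeR. Of the intestinal list 2 of 4 were called higher, miR-192-5p (6.73) and miR-194-5p (5.04), and of the kidney epithelium list 2 of 5, miR-30a-3p (2.43) and miR-30a-5p (1.92). miR-30a-5p was also plentiful in liver, with a median of 31553 CPM beside 97055 CPM in kidney. Among red cell and platelet or white cell miRNAs 0 of 6 and 0 of 7 were called, with a smallest adjusted p of 0.106 in either list by edgeR. At an unadjusted p under 0.05, 2 of those 13 would pass, and DESeq2 called 0. The smallest p were those of miR-144-5p (1.10) and miR-363-3p (-0.72) among red cell miRNAs, and of miR-155-5p (1.51), a miRNA of activated immune cells, and miR-142-5p (-0.86) among white cell miRNAs. Of the nervous system list 1 of 2 was called lower, miR-128-3p (-1.43, adjusted p = 0.0396 by edgeR), beside miR-138-5p at -0.49, where 5.29% of all miRNAs were called lower. Of the muscle list, miR-133a-3p (-1.28) and miR-133b-3p (-0.35), 0 of 2 was called by edgeR (1 at an unadjusted p under 0.05, 0 by DESeq2). The defining brain and muscle miRNAs, miR-124-3p and miR-1-3p, had 1 and 42 reads over all plasma libraries. Without APAP replicate 1 and methylcellulose replicate 3 the list counts called by edgeR were the same except that 1 white cell miRNA was then called lower. At an unadjusted p under 0.05, 3 of 6 red cell, 2 of 7 platelet or white cell and 0 of 2 muscle miRNAs then passed.

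Of the other miRNAs on the islet and neuroendocrine list and the acinar list, miR-182 was plentiful in APAP plasma. miR-183-5p was less so, and the rest were scarce. The TMM-scaled means after APAP were 5831 CPM for miR-182 and 211 CPM for miR-183-5p. Without miR-375-3p, the islet and neuroendocrine list summed to 2519 to 4329 CPM after APAP and 147 to 462 CPM after methylcellulose. Other than miR-375-3p, 8 miRNAs of the islet and neuroendocrine list were in the table, and only miR-182 (5.44, standard error 0.79) and miR-183-5p (5.53, standard error 0.86) had enough reads for a test in APAP plasma; both were called higher, each with an adjusted p of 0.00100 by edgeR. Both come from the miR-183 cluster, which is also known from sensory cells and epithelia. miR-7a-5p, the islet miRNA that usually accompanies miR-375, had 6 reads over all 18 plasma libraries, 1 of them after APAP, and 139 in liver. The acinar markers of the pancreas were at or near 0: miR-216a-5p, the defining one, had 8 reads over the plasma libraries and at most 1.31 CPM after APAP, and the other 5 were at 0 in every APAP and methylcellulose plasma library. The share of miR-375-3p in plasma that came from any organ was not tested.

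**Figure D4:**
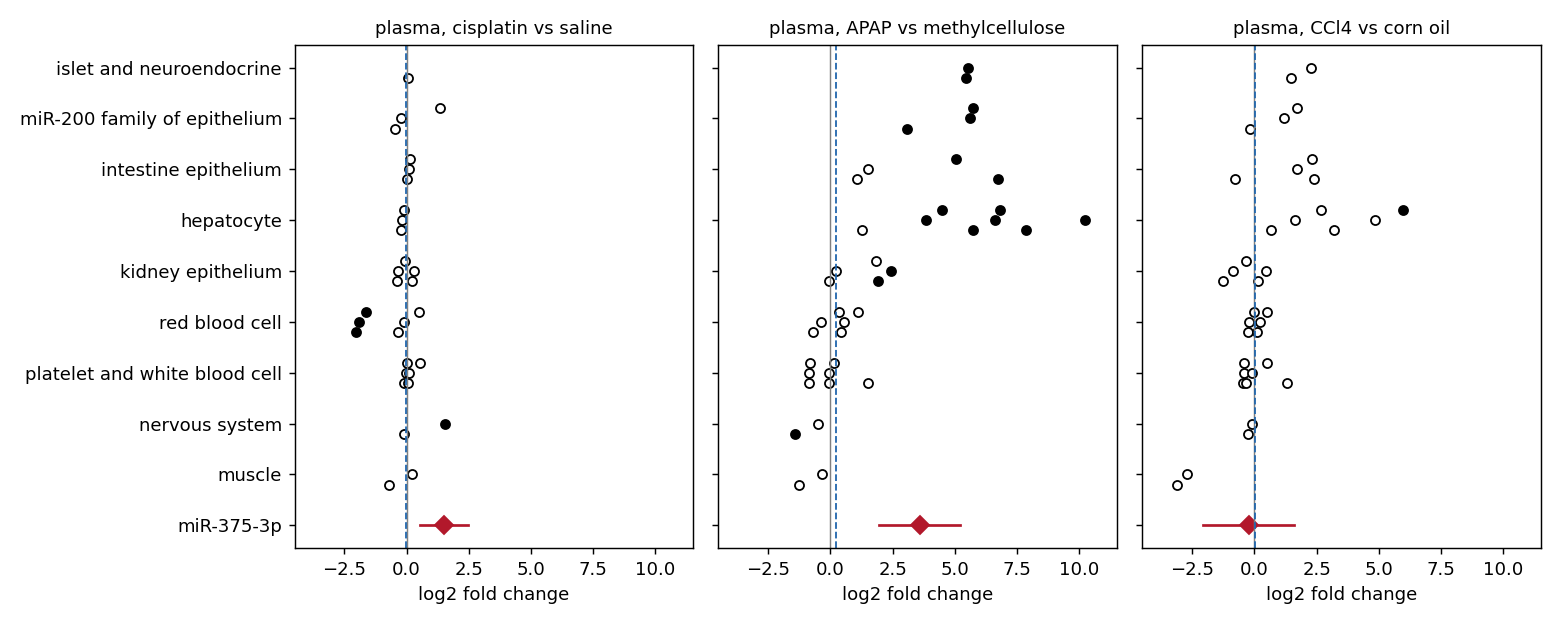
Log2 fold changes (edgeR, TMM) in plasma of the tested members of 9 marker lists, 1 point per miRNA, for cisplatin, APAP and CCl4 against their vehicles. Filled points passed an adjusted p of 0.05, the red diamond is miR-375-3p with its 95% interval and no call shown, and the dashed line is the median of all miRNAs tested. After APAP miR-375-3p (3.58) lies below the 7 called hepatocyte miRNAs, and after cisplatin (1.49) the hepatocyte list lies near 0; the highest hepatocyte point, miR-802-3p, had 0 reads in its vehicle group and its position depends on the prior count.

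In CCl4 plasma 1 of 6 tested hepatocyte miRNAs was called higher, miR-122-5p (5.96, standard error 0.92, adjusted p = 0.0141 by edgeR), and the list median was 2.95 beside 0.04 over all miRNAs tested. Next to it were miR-122-3p (4.85, adjusted p = 0.0721) and miR-193a-3p (2.68, adjusted p = 0.0721). Of the 31 tested miRNAs of the other lists 0 were called by edgeR, 5 had an unadjusted p under 0.05 and DESeq2 called 4. Of the miRNAs shared with epithelia, miR-182 stood at 2.27, miR-183-5p at 1.49, miR-192-5p at 2.32, miR-194-5p at 2.41, miR-200a-3p at 1.70 and miR-429 at 1.18, the lowest adjusted p among them being 0.308 by edgeR. The Hox cluster miRNAs miR-10b-5p and miR-10a-5p stood at -1.26 and -0.86, the blood cell miRNAs miR-16-5p, miR-92a-3p, miR-155-5p and miR-142-5p at 0.51, -0.28, 1.31 and -0.41, and miR-128-3p and miR-138-5p at -0.26 and -0.11. Lowest among the list members were the muscle miRNAs miR-133a-3p and miR-133b-3p, at -3.12 and -2.72, while miR-375-3p stood at -0.23 and place 158 of 231. The summed muscle list ran from 204 to 13501 CPM after corn oil and from 674 to 795 CPM after CCl4. Without corn oil replicates 2 and 3, which leaves 1 vehicle library, the median of the tested muscle miRNAs turned from -2.92 to 2.00. With corn oil replicates 2 and 3 left out, edgeR called 0 of 296 miRNAs, and 27 had an unadjusted p under 0.05.

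After cisplatin the markers of other organs gave a different picture in plasma. Of 6 red cell miRNAs 3 were called lower, miR-451-5p (-1.63, standard error 0.27, adjusted p = 0.00227 by edgeR), miR-144-3p (-1.90, adjusted p = 0.00258) and miR-144-5p (-2.04, adjusted p = 0.00352). Across all miRNAs of this comparison 2.25% were called lower and 1.8% higher. miR-451-5p fell from 1930, 1979 and 2051 CPM to 751, 479 and 479 CPM. The summed level of the red cell list was 72237 to 87930 CPM after saline and 76428 to 92392 CPM after cisplatin, and its part in the higher share of miR-375-3p was not tested. Of the 14 hepatocyte, kidney epithelium, miR-200 and intestinal miRNAs tested, 0 were called by edgeR or by DESeq2, and 1 had an unadjusted p under 0.05, miR-429 (1.35, standard error 0.53, adjusted p = 0.228 by edgeR). miR-128-3p, a brain-rich miRNA counted under a pair of hairpin copies, was called higher (1.55, standard error 0.38, adjusted p = 0.0234). With the header tag as a term, 2 of the 6 red cell miRNAs were called lower and miR-128-3p was not called.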

How the data were processed

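Per the study's methods, the authors clipped adaptors, aligned reads to the rat genome (Rnor 5.0 in the submitters' processing notes) and miRBase, dropped reads with many genomic hits, and deposited raw counts of reads on mature miRNAs, one column per library. The table held 832 miRNAs, 79 of them further copies, and 737 had reads. CPM were computed here from these counts. Each comparison was fitted on its own 6 libraries with edgeR 4.0.16 (TMM, filterByExpr with a minimum count of 10, quasi-likelihood F test, Benjamini-Hochberg adjustment, threshold 0.05), checked on simulated counts. DESeq2 1.42.0 and other scalings, filters and left-out libraries were alternatives. The fits rest on 3 samples per group, so p-values measure the spread between those samples. The main fits used no block. Same-numbered saline and cisplatin kidneys came from different rats, and the labels do not link them. Their deviations were correlated at 0.263, 0.327 and 0.379, so the replicate number was tried as a block in an alternative fit.

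miR-375, the marker lists and the tests were chosen with earlier results of these data known. The text names both arms, the 5 miRNAs most correlated with miR-375-3p, the first marker of each list and the 2 with the smallest p in each list in APAP and CCl4 plasma. Other names were chosen after their values were seen. RefSeq held the mature sequence of 688 of 753 names.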

Additional observations from a re-analysis of the deposited data

How the results depend on the processing

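No alternative turned miR-375-3p in APAP plasma, whose log2 fold change of 3.58 became 2.06 with total counts and 2.53 without APAP replicate 1 and methylcellulose replicate 3 (2.59 to 3.90 with 1 library left out). The group mean of APAP plasma was 1510 CPM with TMM factors in place of 617. In cisplatin plasma the value of 1.49 passed the threshold with DESeq2 (1.52), with no filter (1.54) and with the replicate block (1.54, adjusted p = 0.00408 by edgeR), and ran from 1.15 to 2.21 with 1 library left out. It did not pass with total counts (1.28, adjusted p = 0.170 by edgeR) or with RLE factors, another scaling (1.55, adjusted p = 0.155 by edgeR). With all plasma groups in 1 fit it was 1.43 (standard error 0.75, adjusted p = 0.994 by edgeR). The labels do not pair samples across groups, so the block is no evidence in plasma, liver and urine and only a check in kidney. The block changed no other call of miR-375-3p. In kidney the value ran from -0.35 to 0.32 with 1 library left out, turning without saline replicate 1 (-0.09), saline replicate 2 (-0.10) or cisplatin replicate 1 (-0.35). In CCl4 plasma it turned with no filter (0.083) and without corn oil replicates 2 and 3 (2.02), and ran from -0.73 to 0.30 with 1 left out. In CCl4 liver it turned with the header tag as a term (0.090) or within tag L5 (0.088). Liver after APAP kept its direction and its side of the threshold throughout (-0.70 to -0.30 with 1 left out). The header tag and double left-out fits were chosen after seeing the data, and the causes of these changes were not tested. Of 20 alternative likeness values (rank correlation, pseudocount of 10 CPM), 15 moved by less than 0.1. The top place by likeness was not stable, passing from miR-192-5p to miR-429 or miR-200a-3p. Urine gave no value with the main filter. After cisplatin the alternatives that gave one ran from 0.73 to 1.36, with 0 calls of miR-375-3p. Depth limits miR-375-3p most in urine and in methylcellulose plasma replicate 3, with 4 reads.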
